A study of Homo sapiens with 16 samples.

Results

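Serum response factor (*SRF*) and 9 genes of the actin cytoskeleton (*ACTB*, *ACTG1*, *ACTA2*, *TPM1*, *TPM2*, *VCL*, *TAGLN*, *CNN1* and *MYL9*) were followed by RNA sequencing in LN229 cells, an established line grown from a human brain tumor of the glioblastoma (GBM) type. The genes were taken by name, as genes linked to serum and to the kinase MK2, and the rule used none of their values. Earlier results of these data were known when the genes were chosen. Both deposited tables listed 9 of the 10, among 13559 genes (experiment 1) and 14024 genes (experiment 2), and *MYL9* was not analysed here. The 16 libraries formed 8 groups of 2. In experiment 1, untreated cells were kept in regular culture (DMEM with 10% fetal bovine serum) or in ischemic culture, which in this study is a medium with 1% serum, 2 mM glucose and 0.1 mM glutamine at about 1% oxygen. In experiment 2, cells in each culture received DMSO as vehicle, VX745, which inhibits p38α, or MK25, which inhibits its downstream kinase MK2. Elsewhere in the study VX745 was used at 2 µM and MK25 at 10 µM. The doses and the hours in culture behind these libraries are not given in the sources used here. All groups share the same cell line, with no added gene or deletion named in the labels.

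SRF is a transcription factor that binds the CArG box, a short sequence with C and G bases flanking a run of A and T bases. It works with partners of several kinds. Myocardin-related transcription factors (MRTFs) are held by free actin monomers and reach SRF when actin is assembled into filaments, and ternary complex factors of the ELK family bring growth factor signals from MAP kinases to SRF. Targets of the first route include actins and proteins of actin filaments and focal adhesions, and targets of the second include immediate early genes. Serum is a classical activator of both. MK2, a kinase activated by p38, phosphorylates the small heat shock protein HSP27, which acts on actin filaments.

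CArG boxes were searched in RefSeq promoter windows of GRCh38.p14, from 250 bases before to 50 bases after a gene's start, on either strand. Gene positions in what follows are those of RefSeq on the same build. Windows were found for 7 of the 9 genes with values, and none for *ACTB* and *TAGLN*. Only exact matches to CCWWWWWWGG, where W is A or T, were counted as boxes, and sequences with a mismatch were not. By this rule the *ACTG1* window and an *SRF* window held a box, while another *SRF* window held none. The windows of 1.60% of 27305 genes held a box. The windows of *ACTA2*, *CNN1*, *TPM1*, *TPM2* and *VCL* held no exact match. An *ACTA2* window held ccttgtttgg, which misses the pattern by a G within the run of A and T. Absence of an exact match therefore does not exclude a box with a mismatch. The stretches below show the boxes of *SRF*, the factor itself, and of *ACTG1*, the actin with the largest difference between the cultures, with the boxes in capitals. A stretch of *VCL*, which also differed strongly but held no box, is shown for contrast. A box in these letters is a description of the sequence and was not tested for binding.
SRF, chr6:43171209-43171268, plus strand, ending at the base before the start: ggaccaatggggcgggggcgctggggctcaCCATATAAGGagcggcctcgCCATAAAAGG
ACTG1, chr17:81512854-81512923, minus strand, from position −124 to −55 relative to the start: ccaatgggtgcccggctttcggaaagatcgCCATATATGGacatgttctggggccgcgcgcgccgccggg
VCL, chr10:73998036-73998115, plus strand, ending at the base before the start: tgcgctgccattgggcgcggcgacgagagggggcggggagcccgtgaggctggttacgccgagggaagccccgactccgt

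Values are log2 normalized CPM (reads of a gene scaled to a common library size), and differences are given on this log2 scale, on which 1 is a doubling. Depth ranged from 20122017 to 37562668 reads per library on the listed genes, and in experiment 2 the ischemic libraries (27239609 to 37562668) were mostly deeper than the regular ones (20122017 to 30228774). The part of depth in the differences between the cultures was not tested. A gene was called at an adjusted p under 0.05 (limma, two-sided, Benjamini-Hochberg over all genes), whatever the size of the difference, and standard errors (SE) and 95% intervals are limma's too. Nothing in the labels says that the 2 libraries of a group came from separate cultures, so the tests measure the spread between libraries, which may be technical. The values of experiments 1 and 2 were normalized separately and are compared only within an experiment. All 7 GBM and astrocytic markers searched were listed, with *VIM* at 2160 to 6994 CPM, *CD44* at 761 to 1013, *NES* at 339 to 954, *SOX2* at 8.74 to 89.0, *S100B* at 23.2 to 44.4 and *OLIG2* at 1.92 to 8.53 CPM, while *GFAP*, the defining filament of astrocytes, stayed at 0.780 to 2.08 CPM. Most of these markers differed between the cultures, in both directions. In ischemic untreated cells 1 was called higher (*VIM*, by 1.38) and 5 lower, with *SOX2* at −3.11, *OLIG2* at −1.68 and *NES* at −1.36. With DMSO 2 were higher (*VIM* by 1.27 and *CD44* by 0.32) and 4 lower, with *SOX2* at −2.23. Such calls were common, with 35.2% of all genes higher and 35.2% lower in untreated cells, and 34.4% and 35.2% with DMSO. The part of these markers in the results below was not tested. Of 7 muscle-restricted genes, 2 were listed, and their summed level was at most 3.59 CPM in any library. The summed level of 6 listed fibroblast and pericyte genes ranged from 272 to 473 CPM, nearly all of it *CSPG4*.

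**Figure D1:**
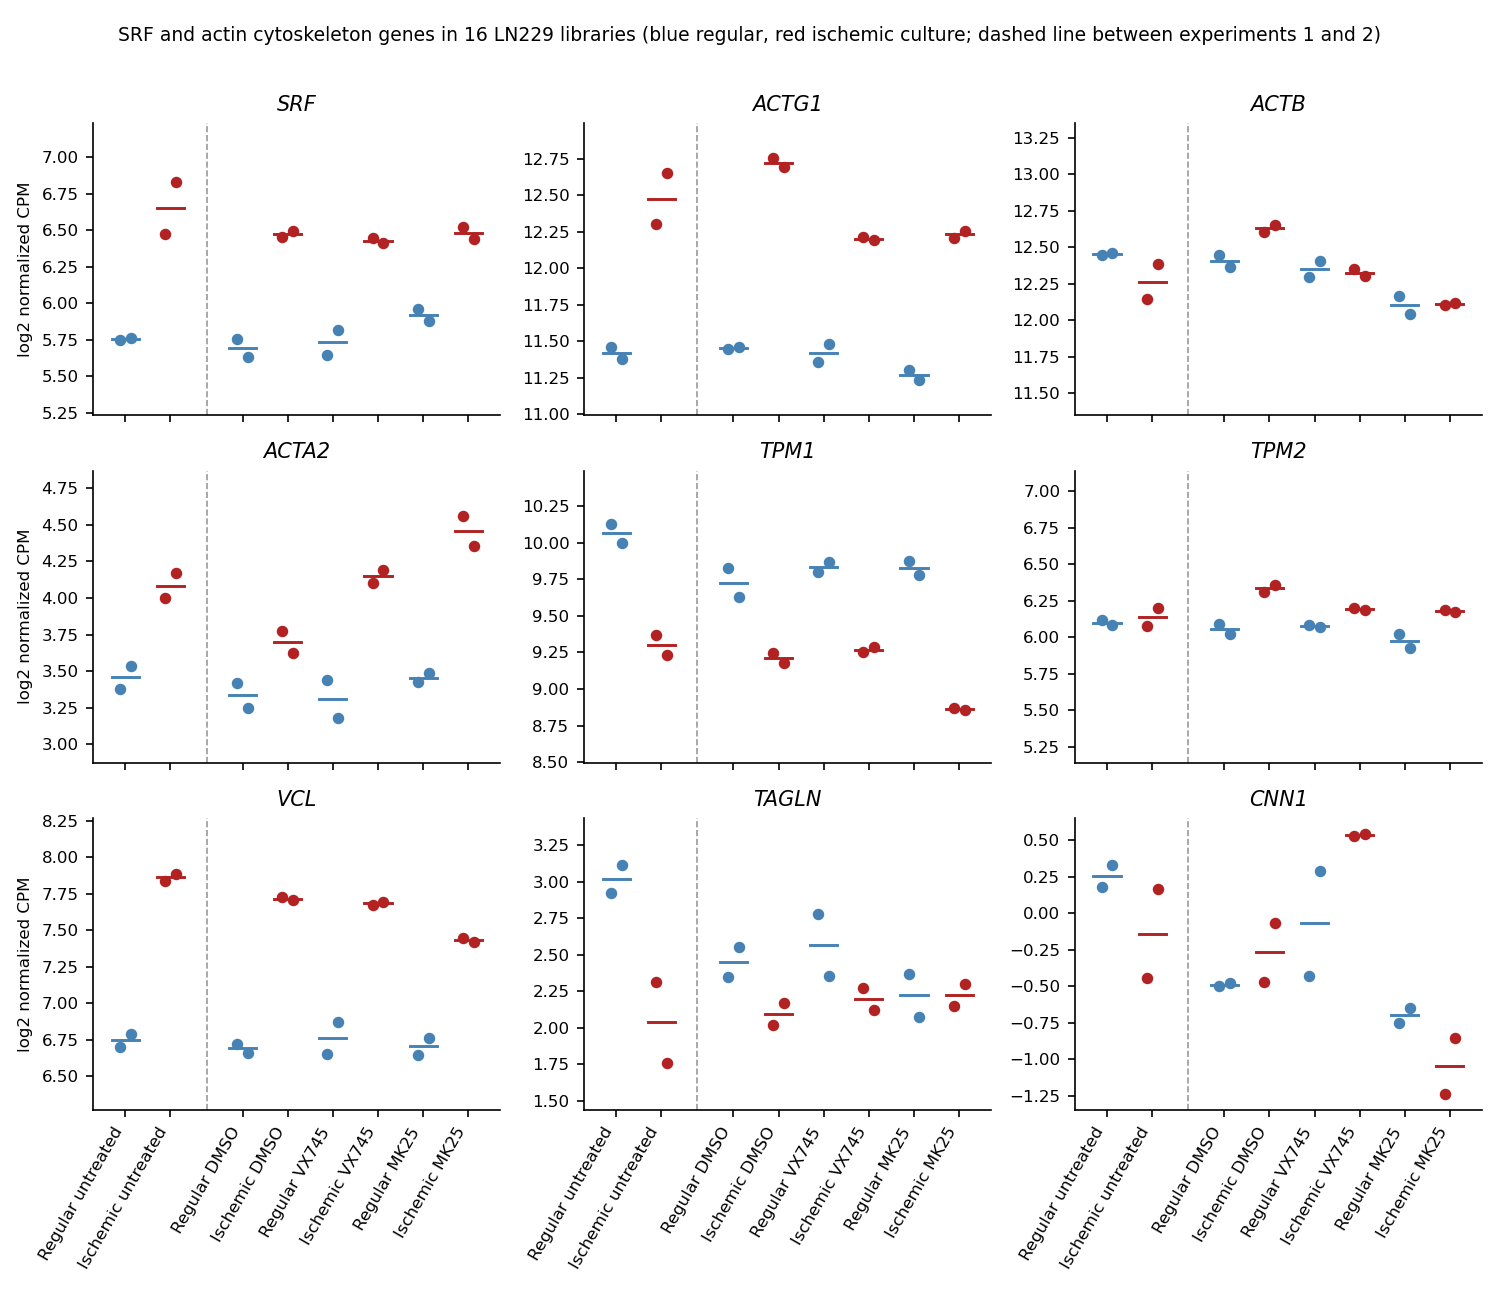
Level of each gene (log2 normalized CPM) in every library, with 1 point per library and a bar at the mean of the 2 libraries of a group. Blue groups are regular and red groups ischemic culture, and the dashed line separates the experiments. The scales differ between panels but each spans at least 2 log2 units. Within each experiment the red points of *SRF*, *ACTG1*, *ACTA2* and *VCL* lie above all blue points, and those of *TPM1* below.

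Per kilobase of the longest transcript, the cytoplasmic actins were the most abundant of the 9 genes in regular culture with DMSO. *ACTB* stood at 2125 ± 81.9 and *ACTG1* at 1127 ± 6.29 CPM per kilobase (SD, n = 2). *TPM1* followed with 215 ± 20.4, *TPM2* with 55.9 ± 1.77, *VCL* with 15.9 ± 0.464, *SRF* with 12.3 ± 0.739 and *ACTA2* with 5.96 ± 0.495 CPM per kilobase. *TAGLN* and *CNN1* were lowest, with 1.45 ± 0.143 and 0.386 ± 0.00455 CPM per kilobase, and no neighbours in this order overlapped in their libraries. In ischemic culture with DMSO, *ACTG1* came first with 2712 ± 78.6 and *ACTB* second with 2482 ± 64.5 CPM per kilobase (SD, n = 2), and the remaining order was the same. The order of the pair depended on the length used. With the median transcript length *ACTB* led with 4876 against 3542, and with the canonical transcript, an alternative added after seeing the data, the values of 3520 for *ACTG1* and 3498 for *ACTB* overlapped. *CNN1* rested on 11 to 45 reads per library and *TAGLN* on 70 to 240, and both are read with that caution, while the other 7 genes had at least 203 reads in each library.

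To see how these genes differed between the cultures, ischemic and regular culture were compared in untreated cells and again with DMSO. The cultures differ in serum, glucose, glutamine and oxygen at once, and the parts of these cannot be told apart. In untreated cells 4 of the 9 genes rose (*SRF*, *ACTG1*, *ACTA2* and *VCL*), 2 fell (*TAGLN* and *TPM1*) and 3 were not called. With DMSO 6 rose (*SRF*, *ACTG1*, *ACTA2*, *TPM2*, *VCL* and *ACTB*, which turned lower under quantile normalization), *TPM1* fell and 2 were not called. Over all genes tested, 35.2% were called higher and 35.2% lower in untreated cells, and 34.4% higher and 35.2% lower with DMSO. The median difference of the 9 genes was 0.04 in untreated cells and 0.28 with DMSO, against −0.01 over all genes in each. In bulk RNA, a change in the share of cells that express a gene and a change in RNA per cell cannot be told apart.

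*SRF* (Entrez 6722, chr6:43171269-43181506) had values of 5.75 and 5.76 in regular and 6.48 and 6.83 in ischemic untreated cells. The ischemic libraries were both higher and lay further apart than the regular ones. The difference was 0.90 (SE 0.10, adjusted p = 5.30e-06), or 1.87-fold. With DMSO, *SRF* stood at 5.76 and 5.63 in regular and 6.45 and 6.50 in ischemic cells, a difference of 0.78 (SE 0.07, adjusted p = 1.55e-08). Under either inhibitor the ischemic libraries (6.41 to 6.52) again lay above all regular ones (5.65 to 5.96).

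*ACTG1* (Entrez 71, chr17:81509971-81512799), which encodes cytoplasmic gamma-actin, had the largest difference of the actins. Its values were 11.46 and 11.38 in regular and 12.30 and 12.65 in ischemic untreated cells, a difference of 1.06 (SE 0.11, adjusted p = 3.01e-06), or 2.08-fold. With DMSO it went from 11.45 and 11.46 to 12.75 and 12.69, a difference of 1.27 (SE 0.07, adjusted p = 1.74e-11), or 2.41-fold. *ACTB* (Entrez 60, chr7:5527148-5530601), which encodes cytoplasmic beta-actin and often serves as a loading control, had differences that depended on the scaling. In untreated cells its values were 12.45 and 12.46 in regular and 12.14 and 12.39 in ischemic libraries, a difference of −0.19 (SE 0.10, adjusted p = 0.102) with a 95% interval from −0.40 to 0.02. That difference was called with libraries centred on their median (−0.23, adjusted p = 0.0465) and under quantile normalization (−1.0, adjusted p = 4.99e-08). Quantile normalization gives each gene the average value for its rank in the library, so differences under it follow changes in rank. With DMSO the values were 12.45 and 12.37 in regular and 12.60 and 12.66 in ischemic libraries. That difference of 0.22 (SE 0.07, adjusted p = 0.0105) was called, but it turned to −0.47 under quantile normalization and was not called without Ischemic DMSO replicate 2 (0.20, adjusted p = 0.0860). *ACTG1* was called higher in ischemic cells under every scaling tried, with differences of 0.42 in untreated and 0.50 in DMSO cells under quantile normalization, where the *ACTB* difference was thus the larger in size in untreated cells.

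The balance of both cytoplasmic actins can be read within a library, where the scaling between libraries cancels. *ACTG1* held 33.5% and 32.1% of the summed *ACTG1* and *ACTB* reads in the untreated regular libraries and 52.7% and 54.6% in the ischemic ones. In experiment 2 its share was 33.4% to 36.3% over the 6 regular libraries and 47.6% to 52.6% over the 6 ischemic ones, so the cultures did not overlap. The log2 ratio of *ACTG1* to *ACTB* was 0.94 higher in the ischemic libraries of experiment 2 (two-sided exact permutation test, p = 0.00216, n = 6 and 6). That test permuted all 12 libraries freely and ignored treatment, and its p is the smallest such a test can give. Libraries of different treatments are not replicates of a culture, so the p describes only how these libraries separate. The ratio test was not among the planned tests. By treatment, the ratio was higher by 1.25 in untreated cells, 1.04 with DMSO, 0.81 with VX745 and 0.96 with MK25, each with an exact permutation p of 0.333 (n = 2 and 2), which is the smallest possible with 2 against 2. Together both actins had 8236 ± 194 CPM in regular and 13093 ± 30.8 CPM in ischemic DMSO cells (SD, n = 2), and 8355 ± 77.2 and 10680 ± 1574 CPM in untreated cells. In these transcripts, 21.9% of the 31-base words of *ACTG1* and 30.1% of those of *ACTB* also occur in other genes, mostly actin pseudogenes and relatives. How the authors counted reads that match several genes is not given in the sources used here, so these levels are uncertain to that extent.

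**Figure D2:**
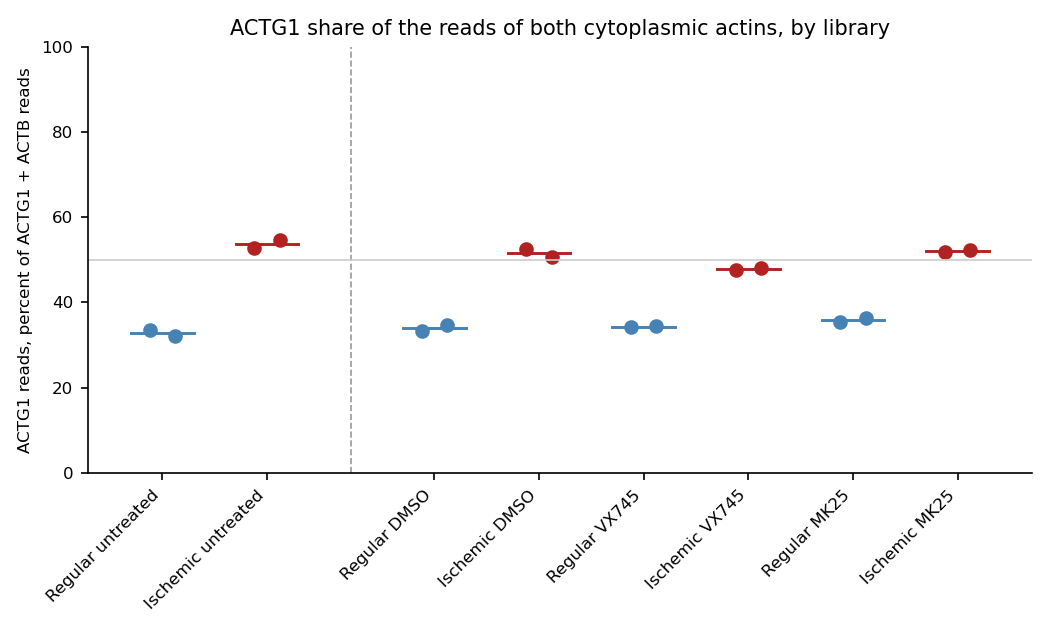
Share of *ACTG1* in the summed *ACTG1* and *ACTB* reads (percent) in each library, with 1 point per library, a bar at the group mean and a grey line at equal shares. Regular libraries (blue) lie between 32.1% and 36.3% and ischemic libraries (red) between 47.6% and 54.6% in both experiments.

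*ACTA2* (Entrez 59, chr10:88935074-88991337), the alpha-actin of smooth muscle and of contractile myofibroblasts, was a rare transcript here. Its values rose from 3.38 and 3.53 in regular to 4.00 and 4.17 in ischemic untreated cells. The groups did not overlap, and the difference was 0.63 (SE 0.12, adjusted p = 0.000391). With DMSO the step was smaller, from 3.42 and 3.25 to 3.77 and 3.62, a difference of 0.36 (SE 0.11, adjusted p = 0.00747). It lost its call without Ischemic DMSO replicate 1 (0.29, adjusted p = 0.0732) or without Regular DMSO replicate 2 (0.28, adjusted p = 0.0737). Exons of *ACTA2-AS1* on the opposite strand overlap 29.1% of the exon bases of *ACTA2*, and the library kit does not mark strand, so the reads of both cannot be told apart there.

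The tropomyosins, which lie along actin filaments and set the access of myosin and other proteins to them, went different ways. *TPM1* (Entrez 7168, chr15:63042747-63071915) fell from 10.13 and 10.00 in regular to 9.37 and 9.24 in ischemic untreated cells, a difference of −0.76 (SE 0.08, adjusted p = 2.31e-06). With DMSO it fell from 9.83 and 9.63 to 9.24 and 9.18, a difference of −0.52 (SE 0.06, adjusted p = 1.25e-06). *TPM1* was the one gene of the 9 called lower in both experiments. *TPM2* (Entrez 7169, chr9:35681993-35690056) had 6.11 and 6.08 in regular and 6.08 and 6.20 in ischemic untreated cells, and these libraries overlapped. Its difference there was 0.04 with a 95% interval from −0.12 to 0.20. With DMSO *TPM2* rose from 6.09 and 6.02 to 6.31 and 6.35, a difference of 0.28 (SE 0.06, adjusted p = 0.000326). *TPM1-AS* overlaps 18.0% of the *TPM1* exon bases on the opposite strand.

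*VCL* (Entrez 7414, chr10:73998116-74121363) encodes vinculin, which links integrin adhesions to actin filaments. It rose from 6.70 and 6.79 in regular to 7.84 and 7.89 in ischemic untreated cells. The libraries of a group lay close together, and the difference of 1.11 (SE 0.07, adjusted p = 2.36e-08) was 2.17-fold. With DMSO it rose from 6.72 and 6.66 to 7.73 and 7.71, a difference of 1.03 (SE 0.07, adjusted p = 2.54e-10). Exons of *AP3M1* on the opposite strand overlap 11.1% of its exon bases.

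*TAGLN* (transgelin, Entrez 6876, chr11:117199294-117207465) and *CNN1* (calponin, Entrez 1264, chr19:11538851-11550323) encode related actin-binding proteins that are classical markers of smooth muscle. *TAGLN* fell in untreated cells, from 2.92 and 3.11 in regular to 2.31 and 1.76 in ischemic libraries, a difference of −0.98 (SE 0.19, adjusted p = 0.000508). With DMSO it had 2.35 and 2.55 in regular and 2.02 and 2.17 in ischemic libraries, a difference of −0.36 that was not called (adjusted p = 0.0647). Without Regular VX745 replicate 2 that difference was called (adjusted p = 0.0496). *CNN1* was not called in either experiment, with differences of −0.40 (95% interval −1.10 to 0.30) in untreated cells and 0.22 (95% interval −0.52 to 0.96) with DMSO. Of the *TAGLN* words of 31 bases, 82.5% also occur in other annotated genes, among them *PCSK7*, whose exons overlap it on the opposite strand, so the level of *TAGLN* is uncertain.

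**Figure D3:**
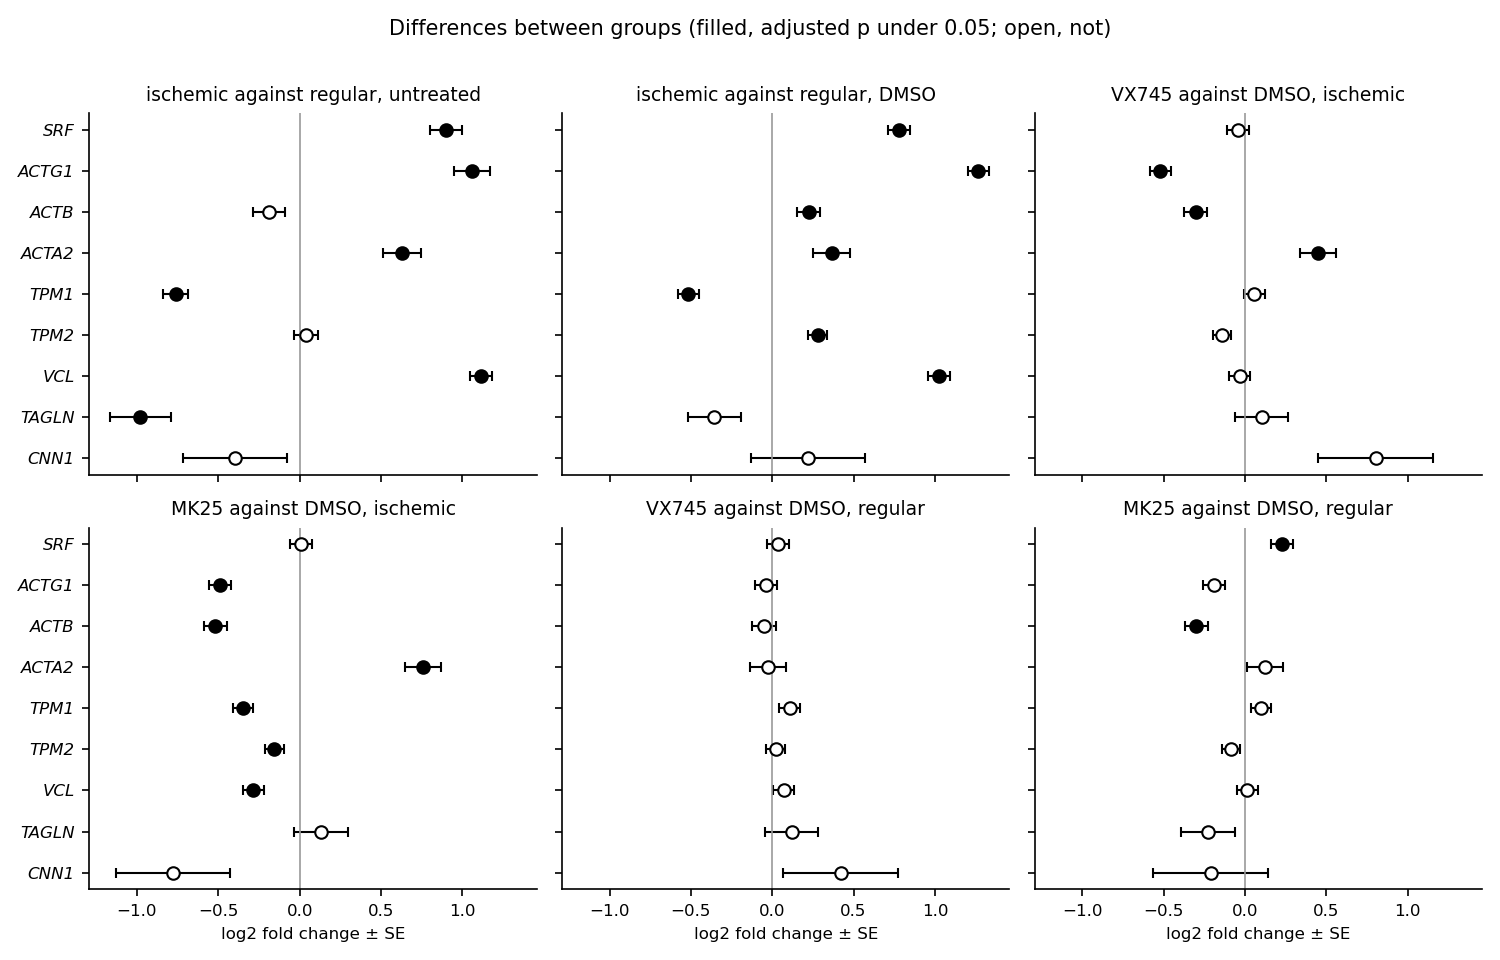
Difference between groups (log2 fold change, with its standard error) for each gene in 6 comparisons. Filled points passed an adjusted p under 0.05 and open points did not. In ischemic culture both inhibitors moved *ACTG1* and *ACTB* left of 0 (*ACTB* with VX745 to 0 under quantile normalization) and *ACTA2* right of 0, and in regular culture no point under VX745 was called.

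The inhibitors were next compared with DMSO in ischemic culture, to see which of these genes differed with either compound there. Whether a difference came through p38α or MK2 was not tested. With VX745, *ACTA2* rose, *ACTG1* and *ACTB* fell (*ACTB* not under quantile normalization) and 6 genes were not called, beside 14% of all genes called higher and 14.9% lower. With MK25, *ACTA2* rose, 5 genes fell (*ACTG1*, *ACTB*, *TPM1*, *TPM2* and *VCL*) and 3 were not called, beside 19.8% higher and 22% lower among all genes. The median difference of the 9 genes was −0.03 with VX745 and −0.28 with MK25, against 0.003 and −0.001 over all genes. Both comparisons share the DMSO libraries, so their values are set side by side and are not independent.

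*SRF* itself was not called under either inhibitor in ischemic cells. It had 6.45 and 6.41 with VX745 and 6.52 and 6.44 with MK25, and its differences from DMSO were −0.05 (95% interval −0.19 to 0.10) and 0.01 (95% interval −0.14 to 0.15). *ACTG1* fell to 12.21 and 12.19 with VX745 and to 12.21 and 12.25 with MK25, below both DMSO libraries in each case. The differences were −0.52 (SE 0.07, adjusted p = 2.86e-05) and −0.49 (SE 0.07, adjusted p = 2.06e-05). All these libraries still lay above every regular library, where the highest value was 11.48. *ACTB* fell to 12.35 and 12.30 with VX745, by 0.30 (adjusted p = 0.00469), and to 12.11 and 12.12 with MK25, by 0.52 (adjusted p = 2.77e-05). The VX745 difference of *ACTB* became 0 under quantile normalization and was not called without Ischemic DMSO replicate 2 (−0.28, adjusted p = 0.0542) or without Ischemic VX745 replicate 2 (−0.28, adjusted p = 0.0629). Under quantile normalization a gene that keeps its rank has a difference of 0, so that 0 does not show an unchanged *ACTB* level. The summed level of both actins was 9852 ± 177 CPM with VX745 and 9237 ± 130 CPM with MK25 (SD, n = 2).

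*ACTA2* moved in the opposite direction to *ACTG1* and *ACTB*. It reached 4.10 and 4.19 with VX745 and 4.56 and 4.35 with MK25, above both ischemic DMSO libraries (3.77 and 3.62). The differences were 0.45 (SE 0.11, adjusted p = 0.00592) and 0.76 (SE 0.11, adjusted p = 4.32e-05), or 1.69-fold for MK25. The VX745 difference of *ACTA2* was not called without Ischemic DMSO replicate 2 (0.38, adjusted p = 0.0597) or without Ischemic VX745 replicate 2 (0.40, adjusted p = 0.0629). The muscle-restricted *LMOD1* and *SYNPO2* summed to 1.81 to 2.22 CPM with DMSO, 3.56 to 3.59 CPM with VX745 and 2.95 to 3.24 CPM with MK25 in ischemic cells, and 5 of the 7 markers of that list were not listed. The fibroblast and pericyte list, of which 6 of 7 genes were listed, summed to 286 to 298, 272 to 287 and 392 to 395 CPM in the same groups. That sum is mostly *CSPG4*, and the markers did not all move with *ACTA2*. *PDGFRB*, a pericyte receptor at most 6.35 CPM here, rose by 0.70 with VX745 (adjusted p = 0.00249) and by 0.68 with MK25 (adjusted p = 0.00166). The other 5 listed genes of that list were not called with VX745. With MK25 *CSPG4* (0.45) and *RGS5* (0.47) were also called higher, and *COL1A1* (−0.20), *DCN* (−0.05) and *LUM* (−0.06) were not called. *SYNPO2*, with 12 to 60 reads per library in experiment 2, rose by 1.01 with VX745 (adjusted p = 0.0198). It was not called with MK25, and *LMOD1* was called with neither inhibitor. The part of either list in the *ACTA2* values was not tested.

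MK25 also lowered *TPM1*, to 8.87 and 8.86, and *VCL*, to 7.44 and 7.42. Both pairs lay below all other ischemic libraries of the experiment, and the differences from DMSO were −0.35 (SE 0.06, adjusted p = 0.000336) and −0.28 (SE 0.07, adjusted p = 0.00221). For *TPM1* MK25 thus moved the level further from regular culture, and for *VCL* towards it. Under quantile normalization the *TPM1* difference was −0.11 and not called (adjusted p = 0.139). With VX745, *TPM1* had 9.25 and 9.28 and *VCL* 7.67 and 7.70, differences of 0.06 (95% interval −0.08 to 0.19) and −0.03 (95% interval −0.17 to 0.10). Quantile normalization gave 0.25 for *TPM1* with VX745, which was called (adjusted p = 0.00371). *TPM2* fell by 0.16 with MK25 to 6.19 and 6.17 (adjusted p = 0.0370). That small difference lost its call whenever any library of Ischemic DMSO (adjusted p = 0.0806 and 0.184), Ischemic MK25 (0.0939 and 0.127) or Ischemic VX745 (0.0569 and 0.0569) was left out, and under quantile normalization (−0.09, adjusted p = 0.244). With VX745 the *TPM2* libraries were 6.20 and 6.19, a difference of −0.14 that was not called (adjusted p = 0.0753). It was called with libraries centred on their median (−0.16, adjusted p = 0.0452) and with only the groups compared (0.0288).

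*TAGLN* had 2.27 and 2.12 with VX745 and 2.15 and 2.30 with MK25, overlapping the DMSO libraries of 2.02 and 2.17. *CNN1* had 0.53 and 0.54 with VX745, above the DMSO libraries of −0.47 and −0.07, and −1.24 and −0.85 with MK25, below them. Neither difference was called (0.80, adjusted p = 0.0966, and −0.78, adjusted p = 0.0855), while without the variance trend both were (adjusted p = 0.0401 and 0.0311). The VX745 difference was also called with voom weights (adjusted p = 0.0447) and with only the groups compared (0.0389). That with MK25 was also called under quantile normalization (−1.21, adjusted p = 0.0135). Both differences rest on 43 and 45 reads with VX745, 16 and 26 with DMSO, and 13 and 17 with MK25.

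In regular culture none of the 9 genes was called with VX745. The count of 0 by limma stands beside 0.178% of all genes called higher and 0.157% lower, and 0 of the 9 had an unadjusted p under 0.05. By limma with voom weights on recovered reads the count was also 0. The largest difference was that of *CNN1*, 0.42 (95% interval −0.32 to 1.16), and those of the other 8 genes lay between −0.05 and 0.12. MK25 in regular culture raised *SRF*, from 5.76 and 5.63 to 5.96 and 5.88, by 0.23 on the log2 scale (adjusted p = 0.0362), and lowered *ACTB*, from 12.45 and 12.37 to 12.17 and 12.04, a difference of −0.30 (adjusted p = 0.0118). Of all genes, 7% were called higher and 5.21% lower. The *SRF* call was lost with voom weights (adjusted p = 0.0554), without the variance trend (0.110) and with only the groups compared (0.125). It was also lost without Regular DMSO replicate 2 (0.16), without Regular MK25 replicate 1 (0.19) and without either Ischemic VX745 replicate. The *ACTB* call was lost with only the groups compared (−0.30, adjusted p = 0.231) and without Regular MK25 replicate 2 (−0.24). *ACTG1* had 11.30 and 11.23 with MK25 in regular culture, a difference of −0.19 that was not called (adjusted p = 0.0708). With voom weights it was called (adjusted p = 0.0325). Without Regular VX745 replicate 1 or 2 it was called (adjusted p = 0.0457 and 0.0464).

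Whether an inhibitor acted differently in the 2 cultures was tested as an interaction, the difference between its effect in ischemic and in regular cells. For VX745, *ACTG1* was called, with an interaction of −0.48 (SE 0.09, adjusted p = 0.00424). Among all genes 5.78% had a higher and 6% a lower interaction. VX745 lowered *ACTG1* by 0.52 in ischemic cells, while in regular cells the difference was −0.04 (95% interval −0.18 to 0.10). *ACTA2* had an interaction of 0.48 that was not called (adjusted p = 0.0579), although it was without Regular VX745 replicate 1 (0.60, adjusted p = 0.0448). For MK25, *ACTA2* had a higher interaction (0.64, adjusted p = 0.00683), and *ACTG1* (−0.30, adjusted p = 0.0260), *TPM1* (−0.45, adjusted p = 0.00173) and *VCL* (−0.30, adjusted p = 0.0252) had a lower one, beside 10.5% higher and 13.9% lower among all genes. In regular cells MK25 left *TPM1* at 9.88 and 9.78 and *VCL* at 6.65 and 6.76, with differences from DMSO of 0.10 and 0.01. The MK25 interactions of *ACTG1* and *VCL* were near the threshold. That of *ACTG1* lost its call without any 1 of 5 libraries (both of Ischemic DMSO, with values of −0.27 and −0.33, both of Ischemic MK25, with −0.28 and −0.32, and Regular MK25 replicate 1, with −0.27). That of *VCL* lost it without any 1 of 6 (those 4 ischemic libraries, with −0.29, −0.31, −0.31 and −0.29, Regular DMSO replicate 2, with −0.27, and Regular MK25 replicate 2, with −0.24), and without the variance trend (adjusted p = 0.0893). Under quantile normalization the MK25 interactions of *ACTG1* (−0.06), *TPM1* (−0.17) and *VCL* (−0.19) were not called (adjusted p = 0.744, 0.128 and 0.170). *SRF* (−0.22, adjusted p = 0.106) and *ACTB* (−0.22, adjusted p = 0.130) were not called.

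MK25 was also set directly against VX745. In ischemic cells 4 of the 9 genes were lower with MK25 and none was higher, with 10.2% and 8.22% of all genes called lower and higher. *CNN1* was lower by 1.58 on the log2 scale (SE 0.35, adjusted p = 0.00405), with reads of 13 and 17 against 45 and 43. *TPM1* was lower by 0.41 (adjusted p = 0.000189), *VCL* by 0.25 (adjusted p = 0.0115) and *ACTB* by 0.21 (adjusted p = 0.0464), and no library of one inhibitor overlapped those of the other in these 4 genes. The *ACTB* call was lost without any 1 of the 6 ischemic libraries, with differences between −0.24 and −0.19, and with libraries centred on their median (−0.20, adjusted p = 0.0591). The *VCL* call was lost without Ischemic MK25 replicate 2 (−0.24, adjusted p = 0.0730), Ischemic VX745 replicate 1 (−0.26, adjusted p = 0.0617) or Ischemic VX745 replicate 2 (−0.24, adjusted p = 0.0932). *ACTG1* had nearly the same level under both, a difference of 0.03 (95% interval −0.11 to 0.17). *ACTA2* was 0.31 higher with MK25 but not called (adjusted p = 0.0612). It was called with voom weights (adjusted p = 0.0198), with only the groups compared (0.0208) and under quantile normalization (0.33, adjusted p = 0.0486). Without Regular VX745 replicate 2 the difference was 0.31. In regular cells limma called 0 of the 9 genes, although 3 had an unadjusted p under 0.05 (*SRF*, *ACTG1* and *ACTB*), and 3.96% of all genes were called higher and 1.43% lower. *ACTB* had a difference of −0.25 there (adjusted p = 0.0557), was called by limma with voom weights (adjusted p = 0.0198), and was called without Regular DMSO replicate 1 (adjusted p = 0.0313), Regular DMSO replicate 2 (0.0303), Regular MK25 replicate 1 (0.0403) or Regular VX745 replicate 1 (0.0465).

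The wider pathway was followed in 4 lists of 47 genes, given by counts beside the shares of all genes. For ischemic against regular culture those shares were 35.2% higher and 35.2% lower in untreated cells, and 34.4% and 35.2% with DMSO. In ischemic cells they were 14% and 14.9% with VX745, and 19.8% and 22% with MK25. In regular cells they were 0.178% and 0.157% with VX745, and 7% and 5.21% with MK25. Of 24 further cytoskeletal SRF and MRTF targets, 13 rose, 7 fell and 4 were not called in untreated ischemic cells (median 0.22), and 16 rose, 6 fell and 2 were not called with DMSO (median 0.47). *TGFB1I1*, which encodes the focal adhesion protein Hic-5, rose by 1.25 in untreated (SE 0.07, adjusted p = 1.79e-08) and 1.32 in DMSO cells (SE 0.06, adjusted p = 6.27e-12), and *ZYX* (zyxin) by 1.17 with DMSO (SE 0.05, adjusted p = 4.37e-12). *LIMA1*, an actin filament crosslinker, fell by 1.37 in untreated cells (SE 0.10, adjusted p = 1.08e-07). MK25 in ischemic cells lowered 19 of the 24 and raised 1, with a median of −0.43, and VX745 lowered 9 and raised 1, with a median of −0.13. *PDLIM7*, a protein of actin-based structures, fell most with MK25 (−0.79, SE 0.07, adjusted p = 1.69e-07), followed by *TUFT1* (−0.60, SE 0.07, adjusted p = 5.46e-06). With VX745 the myosin light chain gene *MYL12B* fell by 0.31 (SE 0.06, adjusted p = 0.00174) and *LIMA1* rose by 0.39 (SE 0.06, adjusted p = 6.87e-05). In regular cells 0 of the 24 were called with VX745 by limma, and MK25 lowered 5 and raised 1. The MK25 interaction was called lower for 14 and higher for 1, beside 13.9% and 10.5% of all genes. MK25 was below VX745 in ischemic cells for 15 and above it for 0, beside 10.2% and 8.22% of all genes.

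The 9 growth factor targets of SRF are immediate early and related genes. In untreated ischemic cells 4 rose, 3 fell and 2 were not called, and with DMSO 8 rose and 1 fell, with medians of 0.06 and 0.73. Of all genes, 35.2% rose and 35.2% fell in untreated cells, and 34.4% rose and 35.2% fell with DMSO. *CCN1*, a secreted matrix-associated protein, rose by 1.47 in untreated (SE 0.10, adjusted p = 6.12e-08) and 1.90 in DMSO cells (SE 0.09, adjusted p = 6.96e-12). *EGR1*, an immediate early transcription factor, rose by 2.36 with DMSO (SE 0.11, adjusted p = 4.14e-12) and had a difference of 0.06 that was not called in untreated cells. Its relative *EGR3* fell by 2.08 in untreated cells (SE 0.15, adjusted p = 9.27e-08). MK25 in ischemic cells lowered 8 of the 9, *EGR1* by 2.37 (SE 0.11, adjusted p = 1.37e-10), and raised *FOS*, a subunit of AP-1, by 1.30 (SE 0.12, adjusted p = 2.30e-07), with a median of −0.71. VX745 lowered 4 and raised 1, with falls of 0.97 for the AP-1 gene *JUNB* (SE 0.12, adjusted p = 2.75e-05) and 0.62 for *EGR3* (SE 0.08, adjusted p = 3.71e-05). Of all genes in ischemic cells, MK25 lowered 22% and raised 19.8%, and VX745 lowered 14.9% and raised 14%. In regular cells VX745 also lowered *EGR3*, by 0.48 (SE 0.08, adjusted p = 0.0154), and *MCL1*, a survival gene of the BCL2 family, by 0.27 (SE 0.05, adjusted p = 0.0348). The interaction of *EGR3* with VX745 was −0.14 and not called (adjusted p = 0.486). MK25 in regular cells lowered 3 of the 9, *CCN1* by 0.51 (adjusted p = 0.00152), *JUNB* by 0.42 (adjusted p = 0.0338) and *EGR1* by 0.39 (adjusted p = 0.0268).

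Of 8 SRF cofactors 7 were listed, and *MYOCD* was not analysed here. In ischemic cells 4 rose and 0 fell in the untreated comparison, and 4 rose and 2 fell with DMSO. Of all genes, 35.2% rose and 35.2% fell in the untreated comparison, and 34.4% rose and 35.2% fell with DMSO. *FHL2*, a LIM-domain partner of SRF, rose by 0.77 in untreated (SE 0.08, adjusted p = 1.93e-06) and 1.37 in DMSO cells (SE 0.06, adjusted p = 3.47e-12), and fell by 0.92 with MK25 (SE 0.06, adjusted p = 1.28e-08). Its difference with VX745 was 0.09 and not called. Among the ternary complex factors *ELK4* rose by 0.62 in untreated cells (SE 0.08, adjusted p = 1.80e-05), *ELK1* by 0.57 with DMSO (SE 0.06, adjusted p = 2.30e-07) and *ELK3* by 0.46 with VX745 (SE 0.06, adjusted p = 3.46e-05). *MRTFB* rose with both inhibitors in ischemic cells, by 0.39 with VX745 (SE 0.08, adjusted p = 0.00167) and 0.50 with MK25 (SE 0.08, adjusted p = 9.01e-05). In all, VX745 raised 3 and lowered 1 of the cofactors in ischemic cells, beside 14% and 14.9% of all genes. MK25 raised 1 and lowered 3, beside 19.8% and 22% of all genes.

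The last list held 6 genes of p38, MK2 and HSP27. In untreated ischemic cells 2 rose and 4 fell, beside 35.2% of all genes in each direction. With DMSO 2 rose and 2 fell, beside 34.4% and 35.2% of all genes. *HSPB1*, which encodes HSP27, fell by 1.49 in untreated cells (SE 0.08, adjusted p = 9.24e-09). With DMSO the lowest difference of the 6 genes was that of *MAPK14* (−0.45), so any fall of *HSPB1* was smaller there. *ZFP36*, an mRNA decay factor and substrate of MK2, rose by 1.37 in untreated (SE 0.17, adjusted p = 1.22e-05) and 1.49 in DMSO cells (SE 0.11, adjusted p = 2.42e-09), and fell with MK25 in both cultures, by 0.45 in ischemic (SE 0.11, adjusted p = 0.00377) and 0.71 in regular cells (SE 0.11, adjusted p = 0.000461). *MAPK14*, the gene of p38α, fell by 0.45 in ischemic DMSO cells (SE 0.06, adjusted p = 1.25e-06), and rose by 0.39 with VX745 (SE 0.06, adjusted p = 8.72e-05) and 0.22 with MK25 (SE 0.06, adjusted p = 0.00415). *MAPKAPK2*, the gene of MK2, fell by 0.20 with VX745 (SE 0.06, adjusted p = 0.0171). Each inhibitor raised 1 and lowered 1 of the 6 in ischemic cells. Of all genes, VX745 raised 14% and lowered 14.9% there, and MK25 raised 19.8% and lowered 22%.

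**Figure D4:**
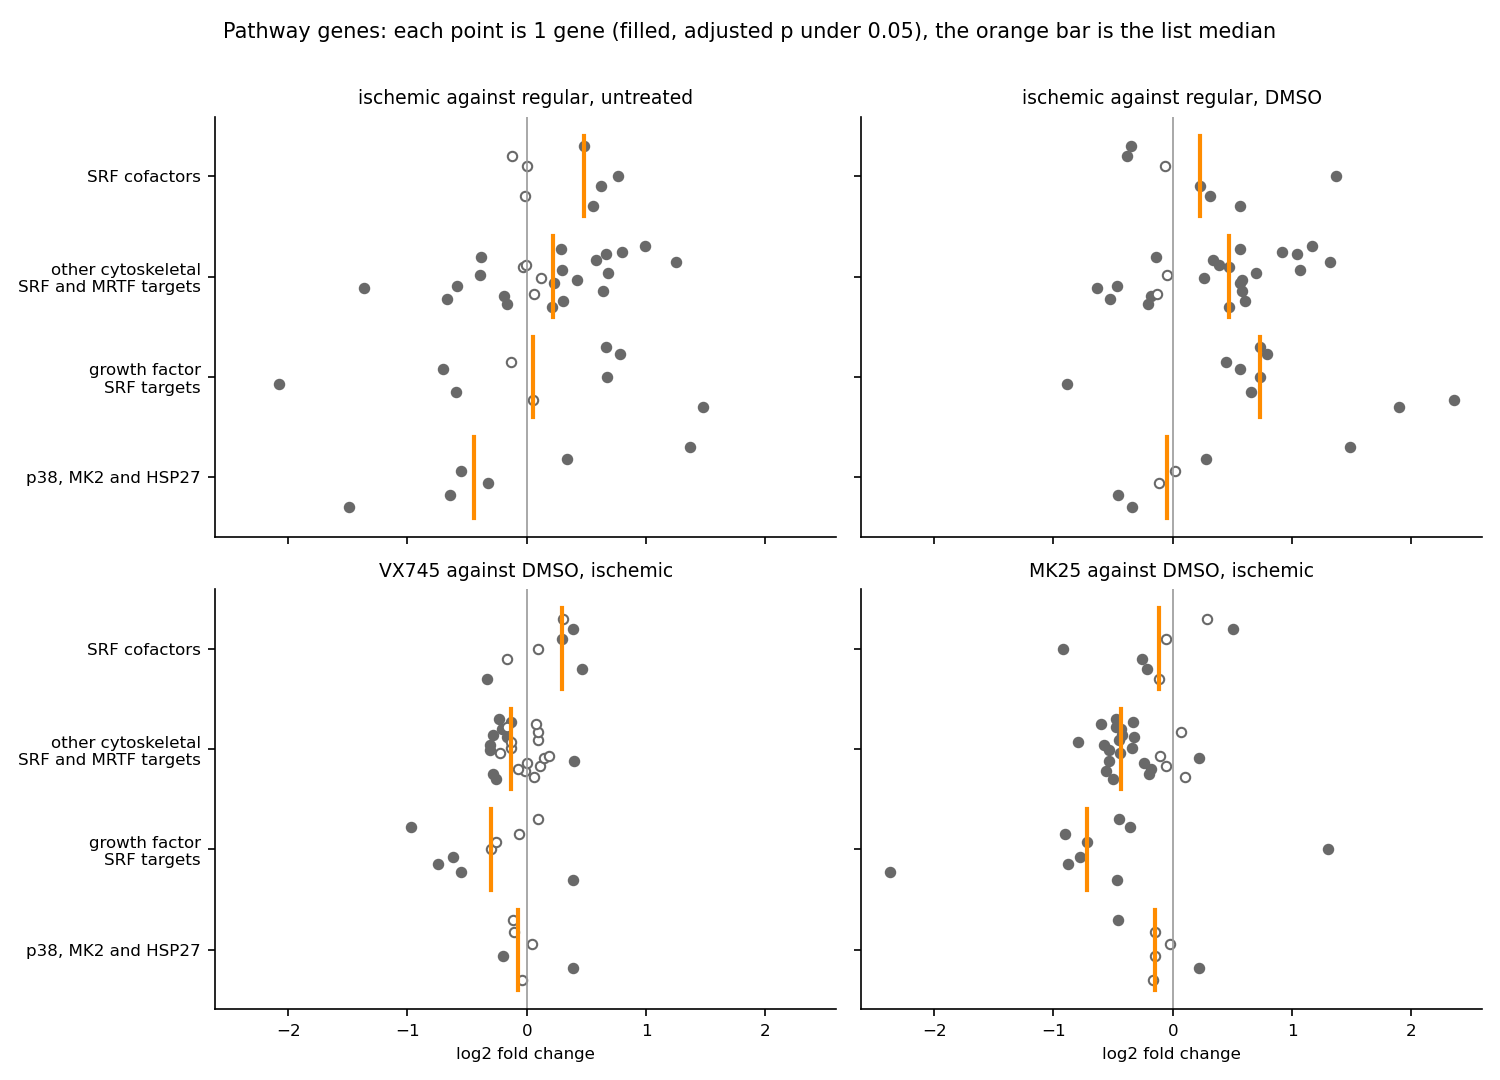
Log2 fold change of every listed gene of the 4 pathway lists in 4 comparisons. Each point is 1 gene, filled where its adjusted p was under 0.05, and the orange bar is the median of the list. With MK25 in ischemic culture the bar of the cytoskeletal targets lies at −0.43 and that of the growth factor targets at −0.71, and with VX745 at −0.13 and −0.30.

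The genes most alike to 3 of the 9 over the 12 libraries of experiment 2 were looked up among the 10053 genes whose mean log2 value was 3 or more, by Pearson's r on log2 values. The libraries of a culture share most of their differences, so high values are common. *SRF* was most like *HK1* (r = 0.993), *SSBP2* (0.992) and *STC2* (0.990), and 1708 genes had r above 0.9 with it. *ACTB* was most like *CYB5R2* (0.965), *CERS2* (0.964) and *MYBL2* (0.939), with 18 genes above 0.9. *TAGLN*, which is sparsely covered, had no gene above 0.9, and its nearest were *CENPL* (0.851), *DOK1* (0.849) and *CDKN2AIP* (0.846). Likeness over 12 libraries is a description of these levels, with no test.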

How the data were processed

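RNA from 16 LN229 libraries was prepared with a kit that does not mark strand. Per the labels and the paper's methods, reads were trimmed and aligned to GRCh38 by HISAT2 within Galaxy by the authors, who deposited log2 normalized CPM per gene and library, 1 table per experiment. The counting program and its version are not given in the sources used here. These log2 values were used as deposited. Entrez identifiers were matched to RefSeq symbols (99.4% and 99.3%). With the logarithm undone, values lie on steps of whole reads above a small offset (100% within 0.05 reads, for values up to 5000 reads), which gave reads per gene and a floor of 3 reads, between −2.71 and −2.16 on the log2 scale. Intervals cover counting error or library spread only.

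Differences came from limma 3.58.1 (R 4.3.3), with 1 mean per group, all libraries of an experiment and a variance trend, in 10 comparisons. The count-based test named in the paper's methods was not run, and voom on the recovered reads served as the alternative based on reads. The limma script was tested on simulated data. The 10 genes, the lists and the comparisons were chosen with earlier results of these data known. A further pathway list is not reported here. Named pathway genes are the 2 called genes of largest change per list and comparison whose mean log2 value was 3 or more. *FHL2* with VX745, *EGR1* in untreated cells, all values of pathway genes in regular cells and single marker genes are named besides, after their values were seen. Alternatives were a fold of at least 1.5, median-centring, quantile normalization, a minimum mean log2 value of 0, no trend, voom on recovered reads, a replicate block, a fit to the compared groups alone, each library left out, and other transcript lengths. Figures were drawn with matplotlib 3.10.9.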

Additional observations from a re-analysis of the deposited data

Results flagged for a closer look

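For 5 results the effect of an inhibitor differed between the cultures by the interaction term of limma. With VX745 the interaction of *ACTG1* was −0.48 (adjusted p = 0.00424), and both ischemic VX745 libraries were below both DMSO libraries, while the regular libraries overlapped. With MK25 the interactions were 0.64 for *ACTA2* (adjusted p = 0.00683), −0.30 for *ACTG1* (adjusted p = 0.0260), −0.45 for *TPM1* (adjusted p = 0.00173) and −0.30 for *VCL* (adjusted p = 0.0252). Under quantile normalization the MK25 interactions of *ACTG1*, *TPM1* and *VCL* were not called (adjusted p = 0.744, 0.128 and 0.170). That of *ACTG1* was also lost without any 1 of 5 libraries, and that of *VCL* without any 1 of 6 and without the variance trend (adjusted p = 0.0893). The MK25 and VX745 interactions share their DMSO libraries. With 2 libraries per group, no group could be searched for a single library far from the others.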

How the results depend on the processing

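The 9 genes in 10 comparisons were refitted under each alternative. A fold of at least 1.5 left 3 called genes for ischemia with DMSO, 0 for VX745 and 1 for MK25 in ischemic cells, 0 for MK25 in regular cells, 0 and 1 for the VX745 and MK25 interactions, and 1 for MK25 against VX745 in ischemic cells. Fitting only the groups compared gave 5 (VX745, ischemic) and 0 (MK25, regular). Without the variance trend 1 gene was called for MK25 in regular and 2 for MK25 against VX745 in ischemic cells. Quantile normalization left 1 gene in the MK25 interaction and turned *ACTB* to −0.47 for ischemia with DMSO, and the cause was not tested. Median-centring, voom and the replicate block each called 1 gene, *ACTB*, for MK25 against VX745 in regular cells. The replicate block also gave 2 calls in the VX745 interaction (*ACTG1* and *ACTA2*) and changed no other call of the 9 genes. Same-numbered libraries did not deviate together (r from −0.10 to 0.18 over 15 pairs of experiment 2, and 0.19 for the pair of experiment 1), so the numbers were not taken to pair samples. Leaving out 1 library gave 1 to 3 calls for VX745 in ischemic cells, 1 to 3 for MK25 in regular cells, 1 to 2 and 2 to 4 for the VX745 and MK25 interactions, and 2 to 5 and 0 to 1 for MK25 against VX745 in ischemic and regular cells. A left-out library leaves its group with 1, which is assumed to vary like the others. The filter on mean log2 values removed *CNN1*. Over all genes, counts of calls fell from 9540 to 5620 and from 9759 to 5043 for ischemia, from 4051 to 737 and from 5850 to 1356 for VX745 and MK25 in ischemic cells, and from 1712 to 349, 1653 to 433, 3424 to 1113, 2580 to 555 and 756 to 205 for MK25 in regular cells, both interactions and both direct comparisons, with the fold of at least 1.5. The 47 genes called for VX745 in regular cells became 346 without Regular DMSO replicate 1 and 10 without Regular DMSO replicate 2, and 6 to 14 without the trend, with voom, with the groups compared alone or with the fold. Leaving out 1 library also moved counts over all genes by more than 1.5 times: for VX745 in ischemic cells to 2396 (Ischemic DMSO replicate 1), 2191 and 2314 (Ischemic VX745 replicates 1 and 2), for MK25 in regular cells to 823 (Regular DMSO replicate 2) and 1060 (Regular MK25 replicate 1), for the VX745 interaction to 601 to 891 (Ischemic DMSO replicate 1, either Ischemic VX745, Regular DMSO replicate 2 or Regular VX745 replicate 1), for MK25 against VX745 in ischemic cells to 1323 to 1657 (any of their 4 libraries) and in regular cells to 495 (Regular MK25 replicate 2) and 390 (Regular VX745 replicate 2), and for VX745 in regular cells to 13 and 12 (Regular VX745 replicates 1 and 2), 25 (either Ischemic VX745) and 31 (Ischemic MK25 replicate 2). No trend gave 879, 594 and 418 for MK25 in regular cells, the VX745 interaction and MK25 against VX745 in regular cells, only the groups compared gave 754 and 493 for the first and last of these, and quantile normalization 1026 for the VX745 interaction.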
